A study of Mus musculus with 12 samples.

Results

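The nuclear genes that encode subunits of respiratory complexes I to IV were followed in healing skin wounds of diabetic mice. Members were chosen by symbol: genes starting with Ndufa, Ndufb, Ndufc, Ndufs, Ndufv, Uqcr, Cox4, Cox5, Cox6, Cox7 or Cox8, plus Sdha, Sdhb, Sdhc, Sdhd and Cyc1. The symbols matched 85 of the 54232 genes in the count files, of which 8 assembly factors (Ndufaf), 4 genes with -ps in the symbol and 3 genes with fewer than 15 counts over all libraries were left out. The latter were Ndufa11b and the testis-type isoforms Cox7b2 and Cox8c. Of the genes with -ps, Ndufb1-ps, annotated as a long non-coding RNA, had 10579 counts in total. The others were processed pseudogenes with 19, 2 and 11 counts. The remaining 70 members comprised 38 of complex I, 4 of complex II, 9 of complex III, 17 of complex IV, and the pair Ndufa4 and Ndufa4l2, given apart because Ndufa4 carries a complex I name but its protein is a subunit of cytochrome c oxidase. Of these, 67 protein-coding genes passed the filter on low counts and were tested. The 3 others, Ndufb4c, Ndufs6b and Cox6c2, are processed pseudogenes with 18, 25 and 50 counts in total.

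All 12 wounds were on the back of male mice of the strain C57BLKS/J with the genotype Lepr (db/db), aged 12.5 weeks per the labels. These mice lack working leptin receptor signalling and become obese and diabetic, and no wound of a non-diabetic mouse was among the samples. A full-thickness punch of 6 mm was covered at once with a Tegaderm film dressing only (TD, 5 libraries), with a patch that imposed a strain of about 30% (Strain, 4 libraries) or with a patch that imposed none (No Strain, 3 libraries). The wound tissue was taken on day 10. The comparisons with TD ask what accompanied a patch with or without strain, and Strain against No Strain asks what accompanied the strain itself.

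The respiratory chain passes electrons from NADH through complex I, or from succinate through complex II, by way of ubiquinone to complex III, cytochrome c and complex IV (cytochrome c oxidase), which reduces oxygen. Complexes I, III and IV pump protons across the inner mitochondrial membrane, and ATP synthase uses that gradient. Complexes I, III and IV are built from mitochondrial and nuclear gene products, complex II from nuclear ones only. Several small subunits of cytochrome c oxidase exist as isoforms: Cox6a2, Cox7a1 and Cox8b are the forms of heart and skeletal muscle, also found in brown fat, while Cox6a1, Cox7a2 and Cox8a are made in most tissues.

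The libraries held 20354677 to 25059371 counts. Levels are given as CPM, a gene's count scaled to a common library size, and the limit set by 3 counts was at most 0.147 CPM, counting error only. The labels do not say whether wounds came from separate mice, so p-values measure the spread between these samples, which may be technical in part. In the labelled skin wounds, keratinocyte markers summed to 8878 to 23357 CPM and fibroblast markers to 42057 to 73154 CPM, and no marker of either list was at 0 in every library. Markers of fast skeletal muscle were present in every wound. In such bulk samples, fewer cells of a type and less RNA per cell cannot be told apart. Sample titles carried numbers of 1 to 6 for TD wounds and of 7 to 15 for patch wounds, so any order they stand for and the dressing cannot be told apart.

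Against this background most respiratory chain transcripts differed little between dressings, and complex IV held most of the exceptions. Called genes are those with a Benjamini-Hochberg adjusted p under 0.05 over all 18618 genes tested, in the edgeR quasi-likelihood test. In Strain against TD, 10 of 67 tested members were called (14.9%), 7 higher and 3 lower, where 12.6% of all genes tested were called, 6.2% higher and 6.41% lower. In No Strain against TD, 6 of 67 were called (8.96%), 4 higher and 2 lower, where 17.8% of all genes tested were called, 9.35% higher and 8.4% lower. The first share was near that of all genes and the second was under it. The median log2 fold change of the tested members was 0.07 in Strain against TD and 0.09 in No Strain against TD, beside 0.02 and 0.00 over all genes tested. The Strain median became 0.11 without TD replicate 1 or Strain replicate 4 and 0.04 without TD replicate 2 or 5, and the No Strain median became 0.02 with library totals alone as scaling. With a list of fast muscle or adipocyte markers as a covariate, the medians were 0.27 and 0.19 in Strain and 0.18 and 0.29 in No Strain. Of the 67 tested members, 57 stayed within 1.2-fold of TD in Strain and 60 in No Strain. Over all genes tested, a pool not matched to the members for level, 60.3% and 54.8% did. Both comparisons use the same 5 TD libraries. All log2 fold changes here are differences between group means on the log2 scale of that fit.

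By complex, the called members in Strain against TD were 3 of 36 tested in complex I, 0 of 4 in complex II, 0 of 9 in complex III and 7 of 16 in complex IV. In No Strain against TD they were 2 of 36, 0 of 4, 0 of 9 and 4 of 16 in the same order. The plot of fold changes by complex shows that the only log2 fold changes below -0.5 were those of the 3 muscle-type isoforms of complex IV.

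**Figure D1:**
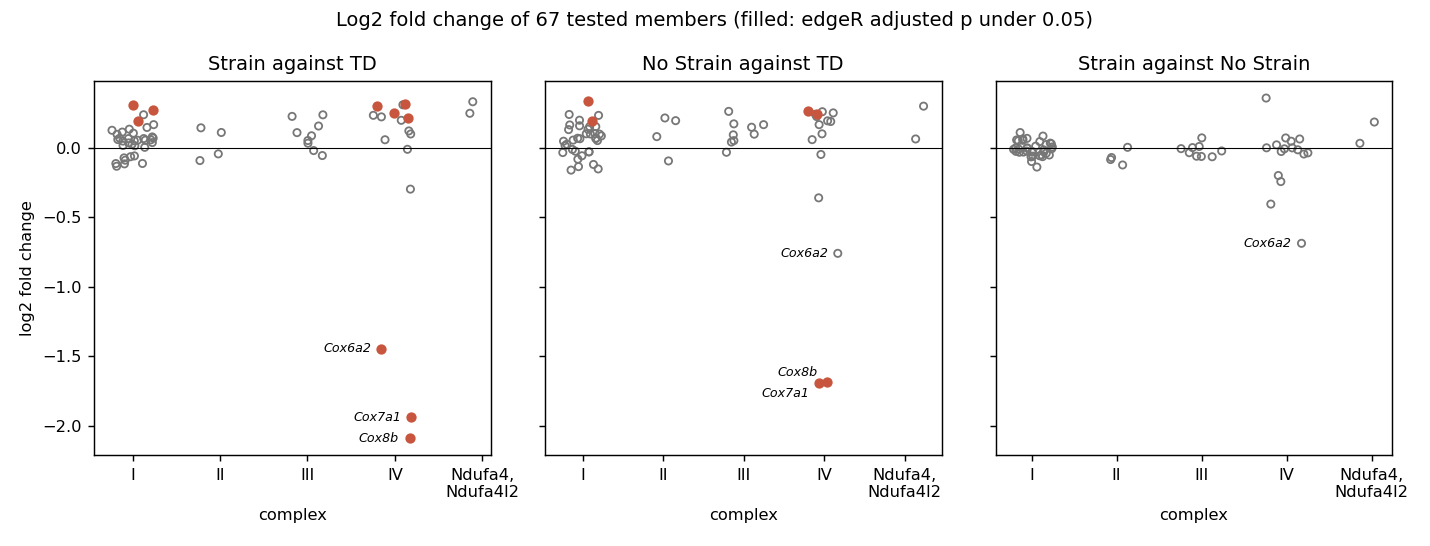
Log2 fold change (vertical axis) of each of the 67 tested members in 3 comparisons (panels), by respiratory complex (horizontal axis); each circle is 1 gene, filled where the edgeR adjusted p was under 0.05, with sideways spread only for legibility. Cox7a1, Cox8b and Cox6a2 lie below all other members in both comparisons with TD, Cox6a2 nearer to the rest in No Strain, the higher calls lie between 0.19 and 0.34, and no circle is filled for Strain against No Strain.

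Cox7a1, the muscle-type form of subunit 7a (chromosome 7, 30184144 to 30186078, GRCm38, plus strand, 4 exon blocks), had 11.1, 7.27, 12.8, 10.6 and 6.44 CPM in TD. It had 3.13, 2.66, 2.18 and 2.11 CPM in Strain, and 3.96, 2.15 and 2.83 CPM in No Strain. Every patch library was below every TD library. Cox7a1 fell by 1.94 on the log2 scale in Strain (SE 0.25, edgeR adjusted p = 0.0037), a level 3.84-fold lower, and fell by 1.70 in No Strain (SE 0.27, edgeR adjusted p = 0.00382), 3.24-fold lower.

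Cox8b, the muscle-type form of subunit 8 (chromosome 7, 140898945 to 140900446, minus strand, 2 exon blocks), had 27.1, 14.4, 28.9, 16.4 and 11.2 CPM in TD. The Strain libraries held 5.22, 5.45, 3.93 and 3.83 CPM and the No Strain libraries 6.03, 3.60 and 8.69 CPM. The groups again did not overlap, although TD replicates 1 and 3 stood well above the other three. Cox8b fell by 2.09 on the log2 scale in Strain (SE 0.33, edgeR adjusted p = 0.00647) and fell by 1.68 in No Strain (SE 0.36, edgeR adjusted p = 0.0114).

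Cox6a2, the muscle-type form of subunit 6a (chromosome 7, 128205435 to 128206387, minus strand, 3 exon blocks), had 46.8, 29.7, 59.1, 40.01 and 20.8 CPM in TD. Its values were 12.2, 11.3, 20.6 and 13.4 CPM in Strain and 21.6, 14.8 and 33.3 CPM in No Strain. Strain lay below TD, by a narrow margin between Strain replicate 3 and TD replicate 5, and No Strain overlapped TD. Cox6a2 fell by 1.45 on the log2 scale in Strain (SE 0.33, edgeR adjusted p = 0.0191). In No Strain the difference was -0.76 (SE 0.35) and did not pass the test (edgeR adjusted p = 0.154). Its exons share 70 of 680 bases with Itgad, an integrin gene on the opposite strand, and the strand setting of the counting is not given in the sources used here.

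**Figure D2:**
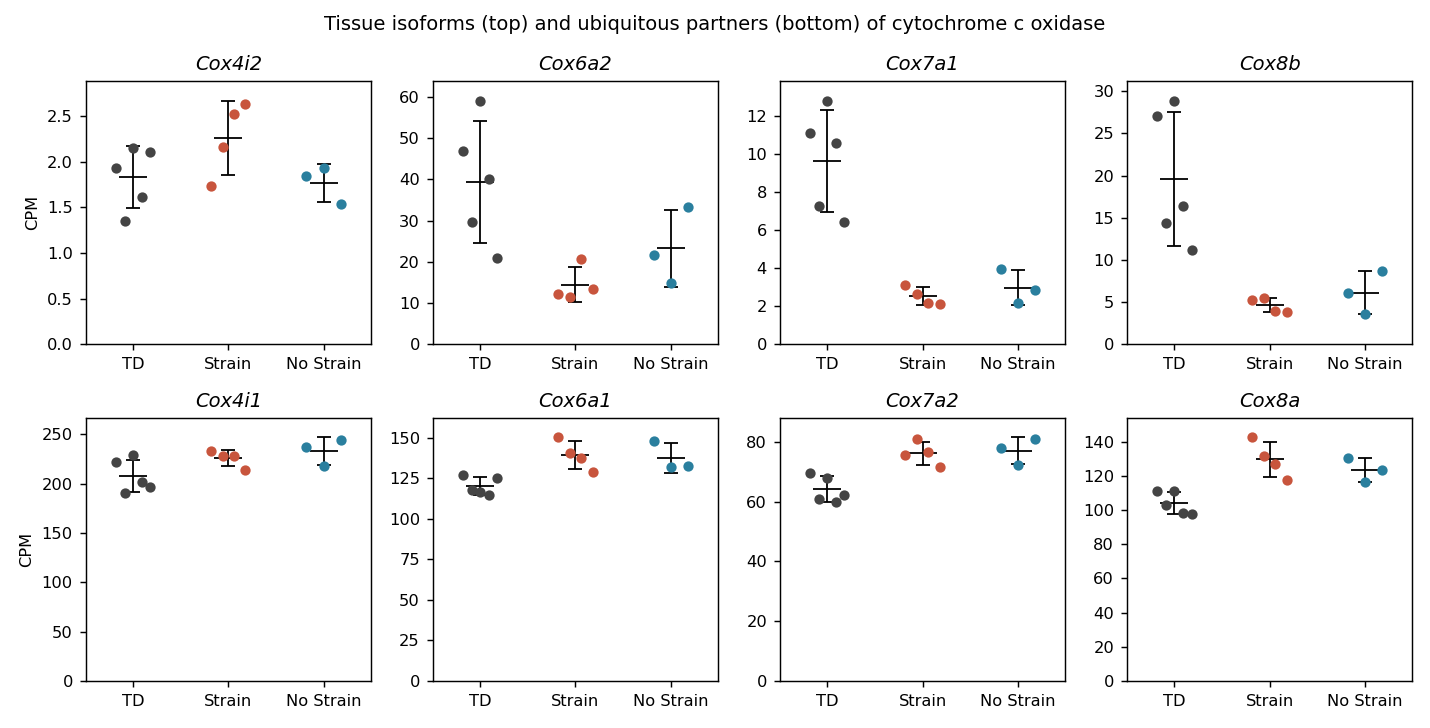
CPM (vertical axes, from 0) of 4 tissue isoforms of cytochrome c oxidase (top) and of their widely made partners (bottom) in TD, Strain and No Strain; points are libraries, the horizontal mark is the group mean and the bar is 1 SD. Cox7a1 and Cox8b are lower in every patch library than in every TD library, Cox7a2 and Cox8a are higher in every patch library, and Cox4i2 and Cox4i1 overlap between groups.

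The widely made partners of the same subunits were modestly higher under both patches. Cox8a (chromosome 19, 7215153 to 7217616, minus strand) had 111, 103, 111, 98.1 and 98.0 CPM in TD, 143, 131, 127 and 118 CPM in Strain, and 131, 117 and 123 CPM in No Strain. Every patch library exceeded every TD library. Cox8a rose by 0.31 on the log2 scale in Strain (SE 0.07, edgeR adjusted p = 0.0166) and by 0.24 in No Strain (SE 0.07, edgeR adjusted p = 0.0436). Cox7a2 (chromosome 9, 79755361 to 79759878, minus strand) had 69.7, 61.0, 67.7, 59.9 and 62.3 CPM in TD, 75.6, 80.9, 76.6 and 71.7 CPM in Strain, and 77.9, 72.1 and 81.0 CPM in No Strain. Here too the patch libraries did not overlap with TD. Cox7a2 rose by 0.25 in Strain (SE 0.06, edgeR adjusted p = 0.0272) and by 0.26 in No Strain (SE 0.07, edgeR adjusted p = 0.0227).

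Cox6a1 (chromosome 5, 115345642 to 115348981, minus strand) had 127, 118, 117, 115 and 125 CPM in TD and 150, 141, 137 and 129 CPM in Strain, and rose by 0.21 (SE 0.06, edgeR adjusted p = 0.0425). The No Strain libraries held 148, 132 and 132 CPM, also above every TD library, and the difference of 0.19 (SE 0.07) did not pass (edgeR adjusted p = 0.0655). Cox6b1, which lies on the intermembrane side of the enzyme near the cytochrome c site, rose in Strain, from a TD mean of 121 ± 7.84 CPM (SD, n = 5) up to 148 ± 16.4 CPM (SD, n = 4), with a log2 fold change of 0.30 (SE 0.09, edgeR adjusted p = 0.0428). Strain replicate 4, at 128 CPM, lay within the TD range, and in No Strain Cox6b1 was at 144 ± 13.7 CPM (SD, n = 3, edgeR adjusted p = 0.0823). The calls in Strain against TD held in 20 of 23 alternative analyses for Cox8a, 14 for Cox7a2, 9 for Cox6a1 and 8 for Cox6b1, and those in No Strain against TD in 13 for Cox8a and 16 for Cox7a2.

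The remaining isoforms showed no call in any comparison. Cox4i1, the major form of subunit 4 and the member with the highest level per kilobase of transcript (288 CPM per kb over all libraries), was at 208 ± 16.6, 226 ± 8.26 and 233 ± 13.9 CPM (SD) in TD, Strain and No Strain. Cox4i2, the form known from lung and oxygen-responsive cells, had the lowest level per kilobase among the tested members of complex IV (2.68 CPM per kb over all libraries) and stood at 1.83 ± 0.34, 2.27 ± 0.407 and 1.77 ± 0.209 CPM in the same order. Cox6b2, the testis-type form of subunit 6b, was at 2.92 ± 0.47, 2.36 ± 0.578 and 2.27 ± 0.169 CPM. Cox7a2l, which joins complexes III and IV into supercomplexes, was at 116 ± 8.94, 121 ± 11.1 and 121 ± 2.80 CPM, and Cox7b at 93.7 ± 10.3, 110 ± 10.2 and 111 ± 7.89 CPM. The edgeR adjusted p for these 5 genes ran from 0.11 for Cox7b upwards in both comparisons with TD.

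The ratio of a tissue isoform to its partner within 1 library does not depend on how libraries are scaled. The log2 ratio of Cox7a1 to Cox7a2 was on average -2.77 ± 0.373 for the 5 TD libraries, -4.89 ± 0.239 for the 4 Strain and -4.69 ± 0.384 for the 3 No Strain libraries (mean ± SD). By an exact permutation test, two-sided and adjusted over 12 tests, the difference was -2.12 for Strain against TD (exact p = 0.00794, adjusted p = 0.0429) and -1.93 for No Strain against TD (exact p = 0.0179, adjusted p = 0.0429). The log2 ratio of Cox8b to Cox8a differed by -2.30 (exact p = 0.00794, adjusted p = 0.0429) and -1.90 (exact p = 0.0179, adjusted p = 0.0429) in the same order. These raw p-values are the smallest that groups of this size allow. The log2 ratio of Cox6a2 to Cox6a1 differed by -1.61 in Strain (exact p = 0.0159, adjusted p = 0.0429) and by -0.94 in No Strain (exact p = 0.0536, adjusted p = 0.107). The log2 ratio of Cox4i2 to Cox4i1 differed by 0.18 (exact p = 0.31) and -0.20 (exact p = 0.286), with overlapping groups. With 1 library left out, adjusted p-values of the 5 ratio differences that passed ranged from 0.0429 to 0.114, since fewer splits remain, and the sign of those 5 differences held.

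The bases before the starts of these genes are printed because the members of these pairs moved in opposite directions in Strain. They are the 250 bases upstream of the RefSeq start (GRCm38.p6), 5′ to 3′ on the gene's strand, with capitals for matches to motifs of factors tied to respiratory or muscle genes.
Cox7a1 (chr7:30183921-30184170, plus strand): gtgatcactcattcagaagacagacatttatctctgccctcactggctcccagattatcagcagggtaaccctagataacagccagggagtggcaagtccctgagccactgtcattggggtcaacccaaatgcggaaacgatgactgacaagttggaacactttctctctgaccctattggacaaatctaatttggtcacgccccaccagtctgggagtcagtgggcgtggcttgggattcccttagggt
Cox7a2 (chr9:79759854-79760103, minus strand): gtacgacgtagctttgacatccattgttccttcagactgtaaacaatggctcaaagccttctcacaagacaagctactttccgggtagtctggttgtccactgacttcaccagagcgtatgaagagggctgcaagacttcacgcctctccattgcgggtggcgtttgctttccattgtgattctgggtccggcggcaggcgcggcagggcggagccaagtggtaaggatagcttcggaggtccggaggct
Cox8b (chr7:140900447-140900696, minus strand): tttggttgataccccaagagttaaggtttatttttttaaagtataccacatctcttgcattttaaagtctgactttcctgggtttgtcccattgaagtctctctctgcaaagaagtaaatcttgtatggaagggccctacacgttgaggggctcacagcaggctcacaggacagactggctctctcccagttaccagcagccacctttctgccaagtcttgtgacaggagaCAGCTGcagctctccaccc
Cox8a (chr19:7217617-7217866, minus strand): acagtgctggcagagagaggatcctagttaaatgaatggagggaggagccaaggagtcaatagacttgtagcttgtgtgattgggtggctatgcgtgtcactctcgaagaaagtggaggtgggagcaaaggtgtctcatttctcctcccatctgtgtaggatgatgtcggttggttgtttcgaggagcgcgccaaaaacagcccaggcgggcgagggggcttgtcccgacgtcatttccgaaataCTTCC
Cox6a1 (chr5:115348959-115349208, minus strand): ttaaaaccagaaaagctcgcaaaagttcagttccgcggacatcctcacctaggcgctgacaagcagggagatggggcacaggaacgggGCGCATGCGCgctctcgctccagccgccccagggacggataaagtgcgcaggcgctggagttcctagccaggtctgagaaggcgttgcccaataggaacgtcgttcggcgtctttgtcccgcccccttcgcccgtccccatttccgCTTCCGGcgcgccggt
The motifs searched on both strands, from 250 bases before to 50 bases after the start, were CCGGAAG (GABP, which reads CTTCCGG on the other strand), TCAAGGTCA (ERRA), CAGCTG (E-box), the palindromic NRF1 site in full, which the capitals of Cox6a1 spell out, and the MEF2 site in its classical forms. The capitals in Cox6a1 mark an NRF1 match at -162 to -153 and a GABP match at -16 to -10. In Cox8a they mark the first 5 bases of a GABP match at -5 to 2, and another GABP match lies at 33 to 39. In Cox8b they mark an E-box at -19 to -14, and another lies at 17 to 22. None of the letters searched occurred in the windows of Cox7a1 and Cox7a2.

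Promoter windows were found for 53 of the 70 members, 55 windows in all, among 32851 windows of that length. GABP letters occurred in 11 member windows (20%), those of Cox6a1, Cox6b1, Cox8a, Ndufb6, Ndufb7, Ndufs3, Ndufs8, Sdhb, Sdhd, Uqcr11 and Uqcrh, and in 8.86% of all windows. NRF1 letters occurred in 3 member windows (5.45%), those of Cox6a1, Ndufa11 and Uqcrc1, and in 0.971% of all. ERRA letters occurred in that of Sdhd only (1.82%, against 0.423% of all), MEF2 letters in 0 (0.274% of all) and the E-box in 5 (9.09%, against 16.3% of all). These are matches of letters, described without a test. Those not covered included Cox4i1, Cox4i2, Cox6a2, Cox6c, Cox6c2, Cyc1, Ndufa2, Ndufa4l2, Ndufb4c, Ndufb9, Ndufs1, Ndufs6b, Sdhc, Uqcrb, Uqcrc2 and Uqcrq.

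By their medians, fast skeletal muscle and adipocyte markers were lower than in TD under both patches, as were the muscle-type isoforms. Slow muscle markers were lower in Strain, at a median log2 fold change of -1.54. In No Strain their median was 1.30, with 0 called. Their summed level was 194, 173 and 508 CPM in No Strain replicates 1, 2 and 3, beside 120 to 450 CPM in TD. Of 17 tested markers of fast skeletal muscle, 13 were called lower in Strain and 5 in No Strain than in TD. Over all genes tested, 6.41% and 8.4% were called lower. The median log2 fold changes of the list were -1.61 and -0.90, beside 0.02 and 0.00 over all genes. The summed level of these markers was 7519 to 18310 CPM in TD libraries, 3462 to 6531 CPM in Strain and 5013 to 10754.5 CPM in No Strain. The log2 fold changes of these markers ran from -2.003 to -0.76 in Strain and from -1.53 to 0.23 in No Strain. The lowest in both comparisons was Pygm, muscle glycogen phosphorylase. Eno3, muscle enolase, stood at -1.86 and -1.43. Both genes had an edgeR adjusted p under 0.05 in both comparisons.

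Of 11 adipocyte markers, 7 were called lower in Strain and 10 in No Strain, where 6.41% and 8.4% of all genes were. The medians of the adipocyte markers were -1.32 and -2.33. Their summed level was 1274 to 2962 CPM in TD, 910 to 1376 CPM in Strain and 697 to 993 CPM in No Strain. The log2 fold changes of the list ran from -1.79 to -0.68 in Strain and from -3.05 to -0.49 in No Strain. Lep, the leptin gene, was the lowest in both, at -1.79 and -3.05 (edgeR adjusted p = 0.0122 and 0.00249). Among 5 brown adipocyte markers only Cpt1b, the muscle and brown fat carnitine palmitoyltransferase, was called, lower in Strain at -1.03 (edgeR adjusted p = 0.0334). Ucp1, which defines brown fat, stood at 0.556 ± 0.745 (SD, n = 5), 1.73 ± 1.58 (SD, n = 4) and 1.29 ± 1.77 (SD, n = 3) CPM in TD, Strain and No Strain, with no call.

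Cox6a2 was highest in the library with the most fast muscle marker RNA, TD replicate 3. No Strain replicate 3, with 10754.5 CPM of those markers, had the highest Cox6a2 and Cox8b of any patch library. That same library had 2.83 CPM of Cox7a1, below every TD library, including TD replicate 5 with 7519 CPM of muscle markers and 6.44 CPM of Cox7a1. Its adipocyte marker sum, 697 CPM, was the lowest of the 12 libraries, against 1274 CPM in TD replicate 5. With the mean of the fast muscle list as a covariate, the edgeR fit called 0 members in Strain against TD, where 0.00537% of all genes were called, and Cox6a2 turned to 0.27 (adjusted p = 0.747). For No Strain against TD that fit called 2 members, Cox7a1 and Cox7a2, where 3.83% of all genes were called. With the mean of the adipocyte list as a covariate, an alternative chosen after seeing the data, 0 members were called in either comparison, where 0.322% and 0.301% of all genes were called. All log2 fold changes of Cox7a1 and Cox8b in these fits were below 0, from -0.67 to -1.50. The part of muscle and fat cells in the levels of these isoforms was not tested.

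**Figure D3:**
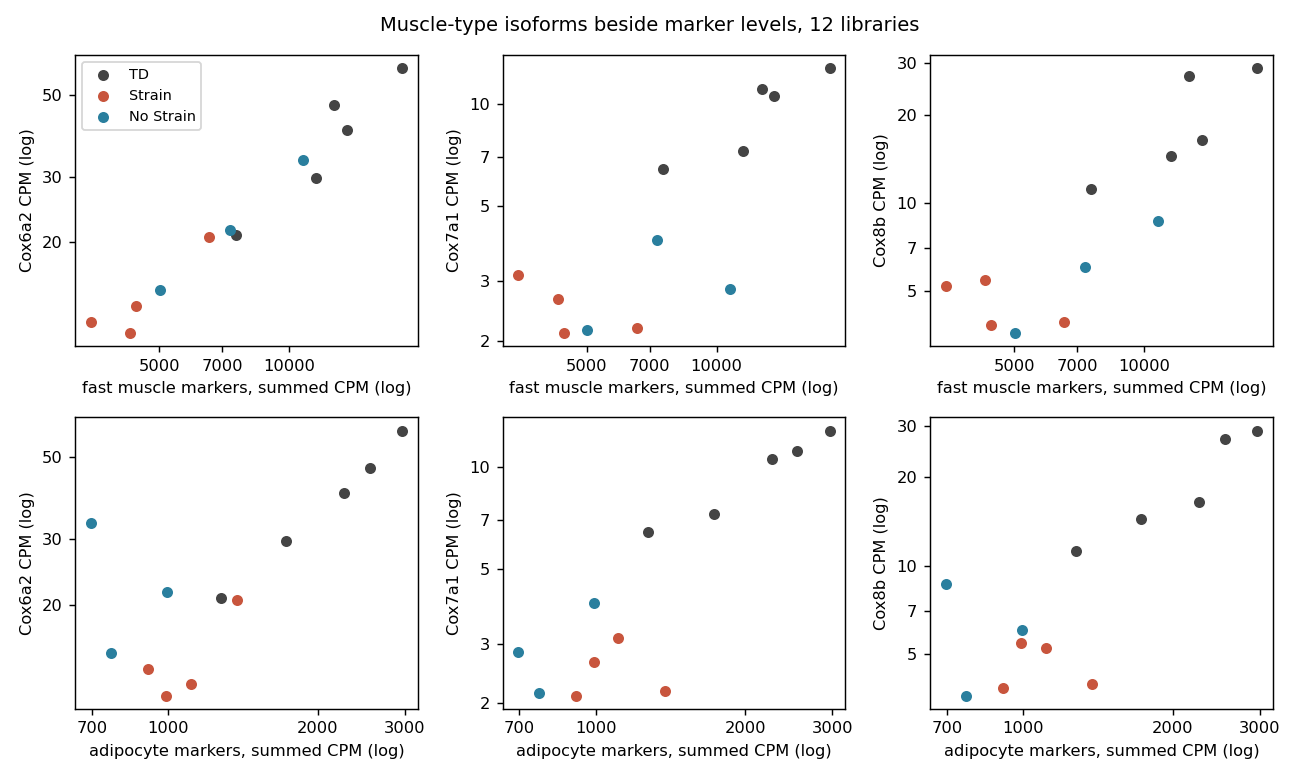
CPM of Cox6a2, Cox7a1 and Cox8b (vertical axes, log scale) against the summed CPM of fast muscle markers (top, horizontal log axis) and adipocyte markers (bottom, horizontal log axis); each point is 1 of 12 libraries, coloured by group. The Cox6a2 points of all groups lie along 1 band in the muscle panel, and TD lies above the patch libraries for Cox7a1. No Strain replicate 3 has 10754.5 CPM of muscle markers and 697 CPM of adipocyte markers, the lowest adipocyte sum of the 12 libraries.

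The letter L or R in the sample titles, whose meaning is not given, was unevenly spread, with 1 L and 4 R libraries in TD, 3 L and 1 R in Strain and 2 L and 1 R in No Strain. Among R libraries Cox7a1 was 6.44 to 12.8 CPM in TD, 2.18 CPM in Strain and 3.96 CPM in No Strain. Among L libraries it was 11.1 CPM in TD, 2.11 to 3.13 CPM in Strain and 2.15 to 2.83 CPM in No Strain, so the order held within each letter. With the letter as a covariate, Cox7a1 and Cox8b were the 2 members called in both comparisons with TD, where 4.29% and 11.5% of all genes were called. Without TD replicate 2, 4 or 5 or Strain replicate 1, 4 members were called in Strain against TD. The shares of all genes were then 7.69%, 6.88%, 10.6% and 8.92%. Without Strain replicate 2 there were 3 (4.75% of all genes), and without Strain replicate 3 there were 6 (13.3%). In No Strain against TD there were 3 without TD replicate 2 or 4 (13.2% and 12.7% of all genes). Without No Strain replicate 1 or 3 there were 2 (8.74% and 7.88%). Cox7a1 and Cox8b were called in both comparisons with TD whichever library was left out. With library totals alone as scaling, the split of calls was 4 higher and 3 lower in Strain against TD (12.2% of all genes called). In No Strain against TD it was 0 higher and 2 lower (17.7%).

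Ndufa4 and Ndufa4l2 varied more between libraries than most members. Ndufa4 had 126, 111, 122, 121 and 93.2 CPM in TD, 183, 166, 123 and 105 CPM in Strain, and 166, 125 and 133 CPM in No Strain. Strain replicates 1 and 2 and No Strain replicate 1 stood highest, while Strain replicates 3 and 4 lay within the TD range. The log2 fold changes were 0.33 (SE 0.16, edgeR adjusted p = 0.197) and 0.30 (SE 0.17, edgeR adjusted p = 0.259). Those 3 high libraries also had the 3 highest keratinocyte marker sums, at 22122, 17842 and 23357 CPM against 8878 to 15459 CPM in the other 9. The same 3 had the highest neutrophil marker sums, at 8752, 5831 and 5222 CPM against 492 to 4360 CPM. The part of either cell type in the Ndufa4 values was not tested.

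Ndufa4l2, an oxygen-responsive relative of Ndufa4, had 104, 49.5, 62.0, 52.5 and 78.5 CPM in TD, 92.7, 92.7, 84.3 and 59.4 CPM in Strain, and 103, 64.4 and 49.9 CPM in No Strain. Each group held libraries near 50 to 60 CPM and libraries above 90 CPM, and the log2 fold changes of 0.25 (SE 0.26) and 0.06 (SE 0.28) did not pass (edgeR adjusted p = 0.558 and 0.903).

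Complex I, the NADH dehydrogenase, changed little as a group. Its 36 tested members had a median log2 fold change of 0.06 in Strain and 0.07 in No Strain against TD, with a range of -0.13 to 0.31 and -0.16 to 0.34. Per library, the summed level of the complex was 1898 ± 143 CPM in TD (SD, n = 5), 1953 ± 86.0 CPM in Strain (SD, n = 4) and 1969 ± 94.8 CPM in No Strain (SD, n = 3). Among the 7 core subunits that carry the electron path, 1 was called, and among the 29 tested accessory subunits 2 were called in Strain and 1 in No Strain.

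Ndufa1, a small accessory subunit of the membrane arm encoded on the X chromosome (37187588 to 37191163, minus strand), had 37.6, 34.0, 38.5, 29.0 and 33.4 CPM in TD. Its values were 45.1, 45.5, 40.5 and 40.02 CPM in Strain and 43.4, 41.5 and 46.1 CPM in No Strain. All 7 patch libraries exceeded the 5 TD libraries. Ndufa1 rose by 0.31 in Strain (SE 0.08, edgeR adjusted p = 0.034) and by 0.34 in No Strain (SE 0.09, edgeR adjusted p = 0.0258).

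Ndufs8, a core subunit with iron-sulphur clusters in the hydrophilic arm (chromosome 19, 3908863 to 3912774, minus strand), had 53.1, 48.0, 51.4, 47.5 and 49.3 CPM in TD. It had 57.7, 58.4, 57.9 and 53.3 CPM in Strain and 60.6, 54.0 and 56.1 CPM in No Strain, so that the groups were separated by a margin of under 1 CPM. Ndufs8 rose by 0.19 in each comparison (SE 0.05 and 0.06, edgeR adjusted p = 0.0443 and 0.0468), and it passed the threshold in 6 of 23 alternative analyses of either comparison.

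Ndufc2, an accessory subunit of the membrane arm (chromosome 7, 97400003 to 97407802, plus strand), had 48.1, 42.3, 47.3, 42.9 and 43.4 CPM in TD and 58.2, 57.3, 53.6 and 47.4 CPM in Strain. Strain replicate 4 lay within the TD range. Ndufc2 rose by 0.27 in Strain (SE 0.07, edgeR adjusted p = 0.0285). In No Strain its values were 52.0, 47.6 and 50.9 CPM, a difference of 0.16 (SE 0.08, edgeR adjusted p = 0.154).

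No member of complex II, succinate dehydrogenase, was called. Its summed level was 503 ± 22.9, 503 ± 22.01 and 523 ± 25.8 CPM (SD) in TD, Strain and No Strain. Sdhd, a membrane anchor of the complex, had a narrow TD spread, 82.9 to 85.4 CPM. Strain held 100, 102, 81.3 and 89.3 CPM and No Strain 99.9, 90.4 and 104 CPM, so that 6 of 7 patch libraries were above the TD range. The log2 fold changes of Sdhd were 0.14 (SE 0.07, edgeR adjusted p = 0.199) and 0.21 (SE 0.08, edgeR adjusted p = 0.0726). Sdhb, the iron-sulphur subunit, stood at 103 ± 6.35, 111 ± 4.29 and 118 ± 7.29 CPM, with edgeR adjusted p = 0.249 and 0.0586. In No Strain against TD, Sdhb was called by DESeq2, by limma-voom, and without TD replicate 3 or No Strain replicate 2, and Sdhd in the fit of only those groups and without Strain replicate 3.

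No member of complex III was called either. Its summed level was 840 ± 69.3, 884 ± 88.6 and 897 ± 66.0 CPM (SD) in TD, Strain and No Strain. Uqcrq, a small membrane subunit, had the smallest p of the complex, with 104, 86.3, 99.3, 83.4 and 82.6 CPM in TD, 116, 112, 102 and 96.3 CPM in Strain and 115, 99.7 and 113 CPM in No Strain. TD replicates 1 and 3 overlapped with the patch libraries, and the log2 fold changes of 0.23 (SE 0.09) and 0.26 (SE 0.10) did not pass (edgeR adjusted p = 0.114 and 0.0802). Without TD replicate 1, Uqcrq was called in No Strain against TD.

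**Figure D4:**
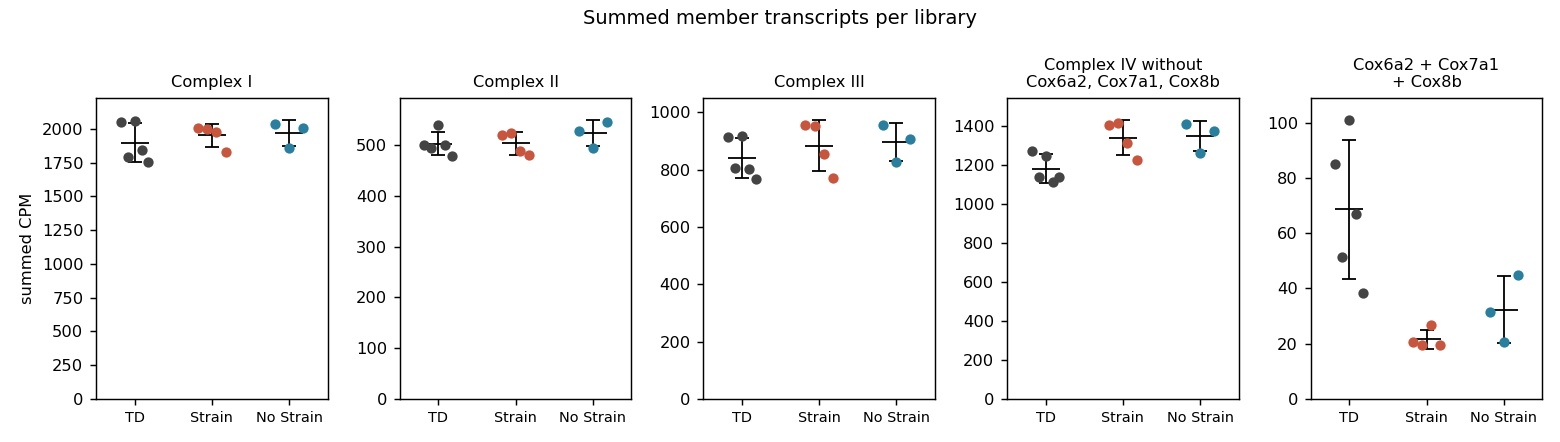
Summed CPM of the members of each complex per library (vertical axes, from 0) in TD, Strain and No Strain, with complex IV split into its 3 muscle-type isoforms and the rest; points are libraries, marks are means and bars 1 SD. Complexes I to III overlap between groups, complex IV without the 3 isoforms averages 1182, 1343 and 1350 CPM, and the 3 isoforms together 68.6, 21.5 and 32.3 CPM.

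Summed without Cox6a2, Cox7a1 and Cox8b, complex IV was at 1182 ± 73.3 CPM in TD (SD, n = 5), 1343 ± 89.2 CPM in Strain (SD, n = 4) and 1350 ± 76.6 CPM in No Strain (SD, n = 3). The 3 muscle-type isoforms summed to 68.6 ± 25.1, 21.5 ± 3.51 and 32.3 ± 12.2 CPM. Sums are given without a test. Per kilobase of principal transcript, the median level over all libraries was 51.0 CPM per kb for complex I, 72.3 for complex II, 104 for complex III and 110 for complex IV. On that scale Cox6a2, Cox8b and Cox7a1 averaged 57.8, 54.5 and 24.6 CPM per kb in TD, 21.2, 12.8 and 6.41 in Strain, and 34.2, 17.0 and 7.58 in No Strain. Their partners lay above them in all groups, with 229 CPM per kb over all libraries for Cox6a1, 214 for Cox8a and 108 for Cox7a2.

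No member passed the test between Strain and No Strain. With 0 of 67 members called by edgeR and 0 of 18618 genes (0%), the count at an unadjusted p under 0.05 was 0 among members and 1045 among all genes (5.61%), and DESeq2 also called 0 members. The median log2 fold change of members was -0.01, beside 0.01 over all genes. Of 67 members 64 stayed within 1.2-fold, beside 74.9% of all genes, which were not matched for level. Cox6a2 had the widest difference, -0.69 (SE 0.36, edgeR adjusted p = 0.872). Cox5a, a subunit on the matrix side of cytochrome c oxidase, differed by -0.20 (SE 0.09, edgeR adjusted p = 0.872), with 47.1, 47.8, 47.1 and 41.9 CPM in Strain below 55.0, 49.3 and 54.4 CPM in No Strain. Sdhc, a membrane anchor of complex II, also did not overlap, with 95.8 to 100 CPM in Strain and 101 to 115 CPM in No Strain, and these 2 were the only members without overlap, where 5.62% of all genes had none, 2.85% being higher and 2.77% lower in Strain. In complexes I and III the smallest p belonged to Ndufs4, an accessory subunit needed for stable complex I, at -0.14 (SE 0.08), and Uqcrb, a small matrix-side subunit, at -0.06 (SE 0.09), with edgeR adjusted p = 0.881 and 0.966.

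Without regard to calls, 9 members in Strain and 9 in No Strain had no overlap with TD. Of all genes tested, 14.6% had none in Strain (7.47% higher, 7.15% lower) and 26.7% in No Strain (14.3% higher, 12.5% lower). In Strain these were Cox7a1, Cox8b and Cox6a2 below TD and Cox8a, Cox7a2, Cox6a1, Ndufa1, Ndufs8 and Ndufb7 above it. In No Strain they were Cox7a1 and Cox8b below and Cox8a, Cox7a2, Cox6a1, Ndufa1, Ndufs8, Ndufa2 and Sdhd above. Ndufb7 (log2 fold change 0.24, edgeR adjusted p = 0.0592) and Ndufa2 (0.23, edgeR adjusted p = 0.053), accessory subunits of complex I, are named here for that reason only.

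Within groups, the members tended to be high or low in the same libraries. TD replicate 1 was the highest TD library for 33 of the 67 tested members and TD replicate 3 for 31, and TD replicate 5 was the lowest for 29. Strain replicate 4 was the lowest Strain library for 54 of 67, and No Strain replicate 2 was the lowest No Strain library for 59 of 67. Those 3 low libraries each had the highest fibroblast marker sum of their group, 66000.1, 73154 and 68133 CPM. TD replicates 1 and 3 had the highest adipocyte marker sums, 2549 and 2962 CPM. The part of these cell types in the members' levels was not tested. The median coefficient of variation among TD libraries was 8.73% over the tested members, with a range of 1.14% for Sdhd to 40.4% for Cox8b, and 9.06% over all genes with a mean of at least 5 CPM.

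**Figure D5:**
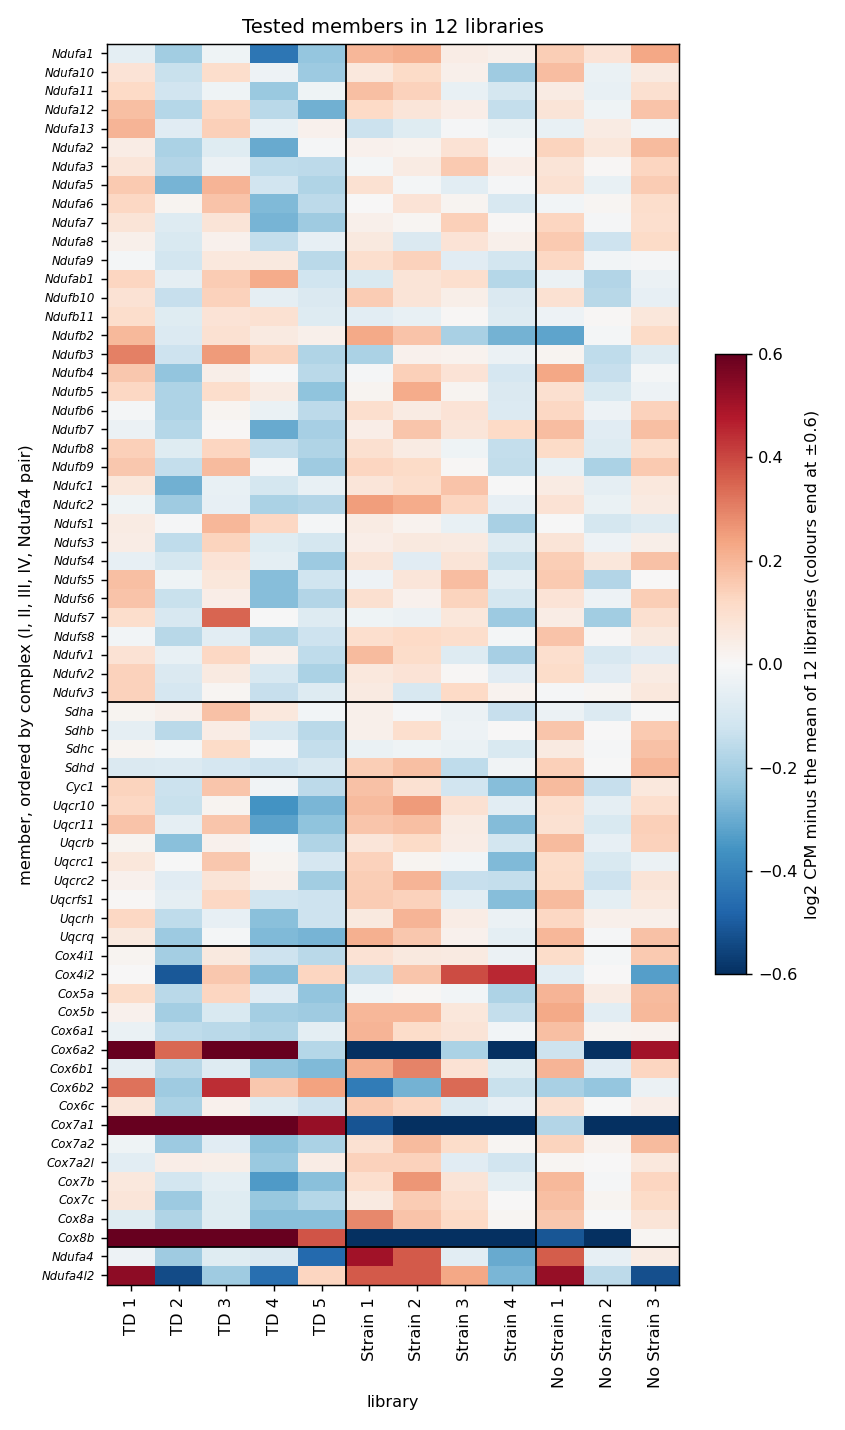
Log2 CPM of the tested members except 1 not reported here (rows, ordered by complex) minus the mean of the 12 libraries, by library (columns, grouped as TD, Strain and No Strain); red is above and blue below the mean, and colours end at 0.6 in either direction. Most rows vary together by library. The summed level of all members was lowest in TD 5, TD 2, Strain 4, TD 4 and No Strain 2, from 4348 to 4655 CPM. Cox7a1 and Cox8b are red in every TD column and Cox6a2 in 4 of 5.

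Genes that work with the nuclear subunits are given by list, beside 12.6% of all genes tested called in Strain against TD and 17.8% in No Strain against TD. None of the 13 mitochondrially encoded subunits was called in either comparison with TD, with medians of -0.02 in Strain and -0.12 in No Strain. In TD, mt-Co2, mt-Co3 and mt-Atp6 averaged only 2.88, 2.18 and 2.89 CPM. There mt-Nd3, mt-Nd4l and mt-Atp8 averaged 0.921, 0.665 and 0.546 CPM, beside 8186 CPM for mt-Co1. Why these were so low was not tested, and the calls, medians and sums say little about them. The summed level of the 13 was 21373 and 21605 CPM in TD replicates 1 and 3 and 14514 to 18267 CPM in the other TD libraries. None of 43 tested assembly factors was called, with medians of 0.05 in both comparisons.

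ATP synthase had 3 of 18 tested genes called higher in each comparison and 0 lower, with medians of 0.12 and 0.11. Atpif1, the inhibitor of ATP hydrolysis by the enzyme, rose from 40.3 ± 2.37 CPM in TD to 48.1 ± 1.60 CPM in Strain (edgeR adjusted p = 0.0229) and 49.2 ± 3.79 CPM in No Strain (edgeR adjusted p = 0.0141). Atp5f1, a subunit of the peripheral stalk, rose by 0.21 and 0.23 on the log2 scale (edgeR adjusted p = 0.0487 and 0.0387).

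Of 17 genes of the TCA cycle and pyruvate dehydrogenase, 3 were called lower in Strain and 2 in No Strain, with 0 called higher. Ogdh, a component of the 2-oxoglutarate dehydrogenase complex, fell by 0.41 in Strain and 0.29 in No Strain (edgeR adjusted p = 0.0119 and 0.0429). Sucla2, a subunit of succinyl-CoA synthetase, fell in Strain by 0.29 (edgeR adjusted p = 0.0355), and Pdha1, of pyruvate dehydrogenase, fell in No Strain by 0.29 (edgeR adjusted p = 0.0235).

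Among 17 electron carriers and entry enzymes, 1 was called higher and 2 lower in Strain, and 2 higher and 1 lower in No Strain. Coq8a and Coq9, which act in ubiquinone synthesis, fell in Strain by 1.06 and 0.45 (edgeR adjusted p = 0.0226 and 0.0242), and Coq9 fell in No Strain by 0.50 (edgeR adjusted p = 0.0176). Pdss1, which makes the side chain of ubiquinone, rose in Strain (19.7 ± 5.90 CPM) and No Strain (21.1 ± 3.76 CPM) over TD (10.6 ± 1.80 CPM) (edgeR adjusted p = 0.0181 and 0.0113). Gpd2, the mitochondrial glycerol-phosphate dehydrogenase, rose in No Strain by 0.48 (edgeR adjusted p = 0.0397).

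Of 13 regulators of respiratory gene transcription, 1 was called higher in Strain and 3 in No Strain. Gabpb1, a subunit of GABP, rose by 0.25 and 0.39 (edgeR adjusted p = 0.0345 and 0.00663). Tfam, which packs and transcribes mitochondrial DNA, and Ppard, a nuclear receptor, rose in No Strain by 0.28 and 0.52 (edgeR adjusted p = 0.0129 and 0.0202). Ppargc1a, the coactivator PGC-1alpha, stood at 2.88 ± 0.901 CPM in TD, 1.77 ± 0.622 CPM in Strain and 1.56 ± 0.279 CPM in No Strain, and did not pass (edgeR adjusted p = 0.132 and 0.0809).

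Of the other marker lists, 8 of 10 neutrophil genes were called higher in Strain and 7 of 10 in No Strain. Over all genes tested, 6.2% and 9.35% were called higher. The summed level of the neutrophil genes was 492 to 1698 CPM in TD, 924 to 8752 CPM in Strain and 2189 to 5222 CPM in No Strain. Of 5 endothelial markers, 2 were called higher in each comparison, Pecam1 and Cdh5. Of 7 pericyte markers, Rgs5 was called higher and Cspg4 lower in each. Of 7 slow muscle markers, Mb was called lower in Strain and 0 were called in No Strain, with medians of -1.54 and 1.30. None of the keratinocyte, fibroblast or macrophage markers was called. The part of these cells in the differences of the respiratory chain genes was not tested.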

How the data were processed

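Poly(A) RNA of 12 wounds was sequenced, and the authors deposited raw read counts for every gene in 1 table a library, as the file headers show. The submitters' processing notes name bcl2fastq 2.17, FastQC, cutadapt, STAR, featureCounts, DESeq2 and GRCm38. Strand setting, annotation release and treatment of reads matching several genes are not given in the sources used here, and 23 of the 67 tested members share exon bases with another gene. Symbols and positions came from GENCODE M21 (GRCm38), which named 54079 of 54232 gene IDs. Promoter sequences and windows came from RefSeq (GRCm38.p6).

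Genes were filtered with filterByExpr (minimum count 10, minimum total 15), scaled by TMM and fitted with edgeR 4.0.16 (robust quasi-likelihood, all 12 libraries in 1 fit) in R 4.3.3, with Benjamini-Hochberg adjustment over 18618 genes. Each standard error is the absolute log2 fold change divided by the root of F. CPM use TMM-scaled totals. Isoform ratios added a prior count of 2 and were compared by two-sided exact permutation tests, whose smallest possible p is 0.00794 (Strain, TD), 0.0179 (No Strain, TD) and 0.0286 (Strain, No Strain). Levels per kilobase use the length of the principal transcript. Replicate pairs were checked for duplicates: the 19 pairs had a chi-square of 9.53 to 75.0 times its degrees of freedom. The fit was tested on simulated data.

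Alternatives were DESeq2 1.42.0, limma-voom (limma 3.58.1) with quality weights, DESeq2 size factors, library totals, other filters, non-robust or 2-group fits, marker or title-letter covariates, a prior count of 0.5, and leaving out each library. Members and gene lists were chosen with earlier results of these data known. Named were, in each comparison and complex, up to 3 called members with the smallest p, otherwise the 1 with the smallest p, and the listed isoforms with their partners. Genes of the other lists were named after their values were seen. Results of 2 genes are not reported here by name.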

Additional observations from a re-analysis of the deposited data

Results flagged for a closer look

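A screen for a library that stood apart by Dixon's ratio at its 95% level covered 56 group values with 4 or 5 libraries. The CPM of the named members were among these values. In 2 of the 56 a library stood apart, where chance gives 2.8. Cox5a was at 41.9 CPM in Strain replicate 4, below the other Strain libraries at 47.1 to 47.8 CPM. Ndufs8 was at 53.3 CPM in Strain replicate 4, below the others at 57.7 to 58.4 CPM. Strain replicate 4 was the lowest Strain library for 54 of the 67 tested members.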

How the results depend on the processing

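Members called in Strain against TD numbered 10 as reported, where 12.6% of all genes were called. They numbered 0 with the muscle list covariate (0.00537% of all genes) and 2 with the title letter (4.29%). The adipocyte list, chosen after seeing the data, gave 0 (0.322%). When 1 library was left out they numbered 3 to 10 (4.75% to 13.3%). In No Strain against TD the 6 (17.8% of all genes) became 2 with library totals alone (17.7%). They became 2 with the muscle list (3.83%), 2 with the title letter (11.5%) and 0 with the adipocyte list (0.301%). DESeq2 called 10 (17.3%), and 2 to 9 were called when 1 library was left out (7.88% to 18.4%). Strain against No Strain stayed at 0 in every alternative run. Cox6a2 in Strain against TD reversed to 0.27 with the muscle list covariate (adjusted p = 0.747); the cause was not tested. The median log2 fold change of members moved to 0.27 and 0.19 in Strain, and to 0.18 and 0.29 in No Strain, with the muscle and the adipocyte covariate.

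With 1 library left out, the log2 ratio differences against TD ranged in Strain from -2.24 to -2.03 (Cox7a1 to Cox7a2), -2.46 to -2.16 (Cox8b to Cox8a) and -1.83 to -1.43 (Cox6a2 to Cox6a1), and in No Strain from -2.14 to -1.76 (Cox7a1 to Cox7a2) and -2.20 to -1.62 (Cox8b to Cox8a). Fewer libraries allow fewer splits, so some of the Strain and all of these No Strain differences no longer passed, with adjusted p of 0.0429 to 0.0857 and 0.0686 to 0.114 in the exact permutation tests. Of 1259 alternative values of the 24 named members, 1128 kept their side of the threshold, 54 of these with a change of sign while called in neither, 124 lost and 6 gained the threshold, and 1 reversed. No paired analysis was possible because the numbers in the sample titles do not repeat between groups. Depth limits chiefly Cox4i2, with 33 to 65 counts per library, Cox6b2, with 38 to 86, and Cox7a1, with 44 to 322.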

Other observations

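AA467197, a relative of Ndufa4 known as Nmes1 and induced in inflammation, does not match the symbol rule and was chosen here after its values were seen. It had 15.9, 5.46, 6.58, 5.98 and 7.54 CPM in TD, 42.8, 31.5, 10.6 and 14.1 CPM in Strain, and 19.7, 29.1 and 31.1 CPM in No Strain. All No Strain libraries and Strain replicates 1 and 2 lay above the TD range, while Strain replicates 3 and 4 lay within it. AA467197 rose by 1.57 on the log2 scale in Strain (SE 0.43, edgeR adjusted p = 0.0362) and by 1.68 in No Strain (SE 0.46, edgeR adjusted p = 0.0282). The Strain libraries with the lower values also had the lower neutrophil marker sums, 924 and 1538 CPM against 8752 and 5831 CPM. In No Strain replicates 1, 2 and 3 these sums were 5222, 2189 and 4360 CPM. There the library lowest in AA467197, replicate 1, had the highest sum. The part of neutrophils in the level of AA467197 was not tested.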
